A study of Homo sapiens with 6 samples.

Results

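The RNF genes are a family named for the RING finger, a zinc-binding fold found in many ubiquitin ligases. Members were chosen by their symbol alone, RNF followed by digits and, for some, a letter, on probe sets that name a single gene. In all, 75 of the 19775 genes with a probe set of their own qualified, through 162 probe sets, and 53 of them passed the filter on low signal, which required a log2 value of at least 4 on at least 2 of the 6 arrays. The symbol rule used no expression value, but the family was picked out with earlier results of these arrays known, so its counts describe it and are not independent evidence of a direction.

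The arrays measured HT-29, an established human colon adenocarcinoma line, in 3 variants with 2 arrays each: wild type, BR100 and BR200. Per the labels, cells had been exposed to bortezomib, an inhibitor of the proteasome, at doses stepped up from 20 to 300 nM over 7 months. Clones were then derived through 2 limiting dilutions over 4 months with 100 or 300 nM of the drug. The labels repeat this treatment for all samples, also for wild type, and state neither the dose at which BR200 was cloned nor whether drug was present at harvest. The first array of each variant was labelled from 100 ng of RNA with the 3′ IVT Express kit and the second from 3 ug with the One-Cycle kit. Nothing in the labels separates the cultures behind a variant's arrays, so the p-values measure only the spread between these arrays, which may be technical. Each resistant variant stands for a clonal derivation and not for a population of resistant lines.

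Ubiquitin ligases choose the protein to be tagged, and the RING finger brings a ubiquitin-loaded conjugating enzyme (E2) to it; many tagged proteins are then destroyed by the proteasome, which bortezomib blocks. RNF proteins work at different sites. Some sit in the membrane of the endoplasmic reticulum (ER) and remove faulty or regulated membrane proteins, some act on receptors at endosomes and the cell surface, and others mark histones, repair sites or immune sensors. A subgroup, the RBR ligases, carries the ubiquitin on the ligase itself before passing it on.

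Promoter sequences are shown for RNF103 and RNF41, which were lower in both resistant variants, and for RNF141 and RNF26, which were higher in both, so that both directions can be seen beside the letters searched. They come from RefSeq (GRCh38.p14) and run from 250 bases before to 50 bases after the first start listed for each gene, 5′ to 3′ on the gene's strand. Capitals mark a match to a searched motif, and RNF103 alone of these 4 held one. RNF103 lies at chr2:86623828-86624127 on the minus strand, RNF41 at chr12:56221873-56222172 on the minus strand, RNF141 at chr11:10541138-10541437 on the minus strand and RNF26 at chr11:119334277-119334576 on the plus strand.
RNF103: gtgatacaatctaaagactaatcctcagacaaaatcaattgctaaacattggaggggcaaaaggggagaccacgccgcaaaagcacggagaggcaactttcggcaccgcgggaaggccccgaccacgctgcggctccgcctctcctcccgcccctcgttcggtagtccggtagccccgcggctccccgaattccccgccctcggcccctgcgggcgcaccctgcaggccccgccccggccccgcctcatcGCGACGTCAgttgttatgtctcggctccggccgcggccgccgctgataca
RNF41: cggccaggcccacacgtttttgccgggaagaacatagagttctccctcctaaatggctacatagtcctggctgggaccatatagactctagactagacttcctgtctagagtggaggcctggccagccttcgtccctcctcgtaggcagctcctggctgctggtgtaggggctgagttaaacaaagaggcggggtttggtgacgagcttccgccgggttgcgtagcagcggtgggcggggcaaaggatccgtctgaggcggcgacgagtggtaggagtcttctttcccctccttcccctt
RNF141: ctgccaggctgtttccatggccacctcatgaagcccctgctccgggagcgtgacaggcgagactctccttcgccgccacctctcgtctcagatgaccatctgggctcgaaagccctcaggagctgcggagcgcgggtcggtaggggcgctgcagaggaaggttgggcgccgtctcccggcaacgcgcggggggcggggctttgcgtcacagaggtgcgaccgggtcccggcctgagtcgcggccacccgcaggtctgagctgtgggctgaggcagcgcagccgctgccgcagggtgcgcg
RNF26: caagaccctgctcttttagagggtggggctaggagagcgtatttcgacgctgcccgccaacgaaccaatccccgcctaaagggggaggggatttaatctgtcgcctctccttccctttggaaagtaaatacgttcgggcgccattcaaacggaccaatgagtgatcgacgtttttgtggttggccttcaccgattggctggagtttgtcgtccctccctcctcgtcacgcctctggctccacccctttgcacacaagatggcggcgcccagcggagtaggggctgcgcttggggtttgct

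The capitals in RNF103 are the core of the antioxidant response element, TGACNNNGC, read on the opposite strand. Both strands of 27305 promoters were searched, and 63 of the 75 members had one. This core stood in 12 of those 63 members (19%) and in 13.6% of all promoters. Of the 26 matched members that were lower in both variants, 8 held it: RNF103, RNF11, RNF113A, RNF128, RNF167, RNF168, RNF216 and RNF24. None of the 5 members that were higher in both held it, and 5 promoters are too few to compare. The share of this core among all genes lower or higher in both was not counted, and its part in the changes was not tested. The C/EBP-ATF response element core, TGATGNAA, stood in 2 members (3.17%) against 3.67% of all promoters. The interferon-stimulated response element, TTTCNNTTTC, stood in 1 member (1.59%) against 3.65%, and the sterol response element core, TCACNCCAC, in 1 (1.59%) against 1.15%. The E2F site, TTTNGCGC, was in no member and in 1.83% of all promoters, and the ER stress response element, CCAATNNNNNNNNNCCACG, in no member and in 0.0806%. The median GC content was 62.3% for members and 58.3% for all promoters. A match is a description of letters in this window and does not show a bound site.

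Most measured RNF genes were lower in the resistant variants than in wild type. In BR100, 35 of 53 passed the test as lower (66%) and 7 as higher (13.2%), and 11 did not pass. Over all 10370 genes tested, 31.8% were called lower, 36.7% higher and 68.5% in either direction. A gene was called at a Benjamini-Hochberg adjusted p under 0.05 in a limma fit over all genes and all 6 arrays, with the labelling kit as a block. In BR200, 33 members were lower (62.3%) and 5 higher (9.43%), beside 31.2% lower, 35.4% higher and 66.5% in either direction among all genes. The share of members called at all, 79.2% in BR100 and 71.7% in BR200, was thus close to the background, and the members' counts lay further from it in the lower direction. Both comparisons share the wild-type arrays.

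The median change of the members on the log2 scale was −0.49 in BR100 and −0.45 in BR200, where the median of all genes was 0.04 in both. Member changes ran from −1.92 to 1.31 in BR100 and from −1.72 to 1.24 in BR200. The median size of change, whatever its sign, was 0.551 for members and 0.545 for all genes in BR100. In BR200 it was 0.511 for both. Of the 53 members, 9 were called lower and 2 higher by at least 2-fold in BR100, and 6 lower and 1 higher in BR200. Over all genes, 12.0% were called lower and 13.7% higher by at least 2-fold in BR100, and 10.7% and 13.0% in BR200. The median standard error (SE) of a member's change was 0.090. Of the calls, 27 of 42 in BR100 (24 lower, 3 higher) and 22 of 38 in BR200 (20 lower, 2 higher) were kept whichever single array was left out. The share of calls kept in this way among all genes was not counted, so these counts have no background beside them. Without the One-Cycle array of BR200, the share of members called in BR200 was slightly below that of all genes.

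**Figure D1:**
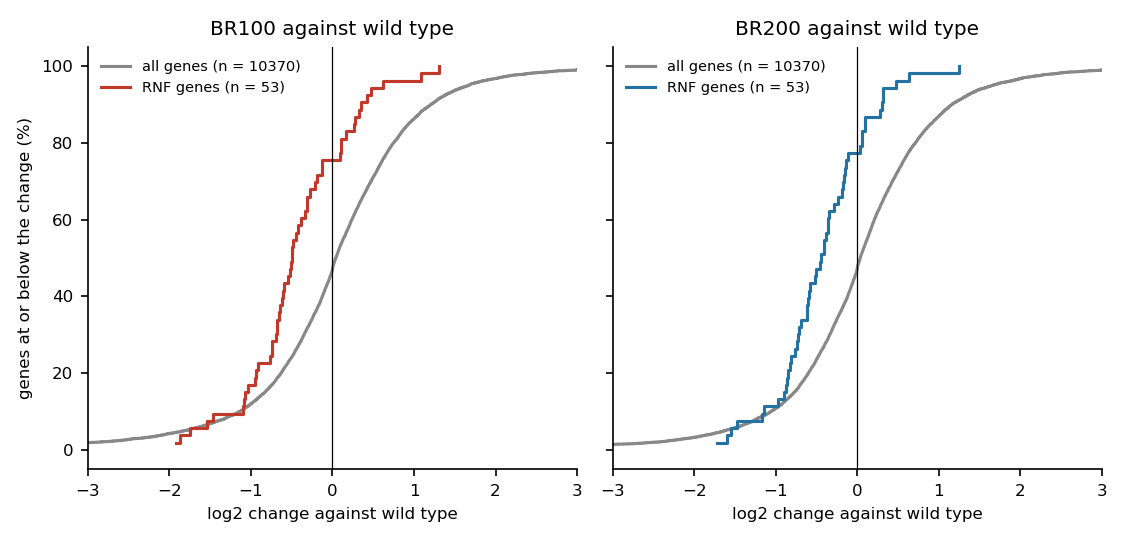
Cumulative share of genes (percent, vertical axis) at or below each log2 change against wild type (horizontal axis), for the 53 measured RNF genes (coloured steps) and all 10370 genes tested (grey), in BR100 (left) and BR200 (right). The RNF curve lies to the left of the grey curve over most of its length, with medians of −0.49 and −0.45 against 0.04, and it does not reach the largest changes of the grey curve in either direction.

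Both signs of RNA or labelling quality at hand moved with the variants. The log2 gap between the 3′ and 5′ probe sets of ACTB was 4.22 on the Express and 2.99 on the One-Cycle array of wild type, 3.03 and 1.86 in BR100, and 3.24 and 1.76 in BR200. The same gap of GAPDH was 0.48 and 0.40, 0.22 and 0.16, and 0.20 and 0.18. The part of either gap in the member changes was not tested. Of 10 colon epithelium markers, 7 passed the filter, while CDX2 and CDH17 stood at the lowest value on every array. The summed log2 level of those 10 was 102.8 to 103.3 in wild type, 99.4 to 99.6 in BR100 and 100.0 to 100.2 in BR200, and its part was not tested either. Fibroblast markers passed the filter for 1 of 7 genes, with COL1A2, COL3A1 and PDGFRB at the lowest value on every array, and blood cell markers for 2 of the 5 on the array, with PTPRC and CD3E at that value. CD14, a monocyte marker among the blood cell genes, was 1.05 higher in BR200 than in wild type (SE 0.10, adjusted p = 0.0013) and 0.78 higher than in BR100 (SE 0.10, adjusted p = 0.0253), and the summed level of the 5 blood genes was 26.7 to 26.8 in wild type, 27.0 to 27.3 in BR100 and 27.9 to 28.2 in BR200. CD14 read 5.33 to 6.76 across the arrays. LYZ, the other blood cell gene above the filter, read 14.3 to 14.8 and was not called against wild type in either variant. The part of these blood cell genes in the member changes was not tested. Endothelial markers passed for 1 of 5. In a bulk measurement, fewer cells of a kind and less RNA per cell cannot be told apart.

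On the probe sets that stood for each gene, 32 members were lower in both variants and 5 were higher in both: RNF115, RNF138, RNF141, RNF20 and RNF26. The share of all genes called the same way in both variants was not counted. Counts of members called in both, here and below, therefore have no background beside them. RNF126, RNF181 and RNF183 were called lower in BR100 and not in BR200, RNF169 lower in BR200 and not in BR100, and RNF111 and RNF166 higher in BR100 and not in BR200. Of these single-variant calls, that of RNF183 was kept without any one array. The remaining 10 passed in neither: RNF121, RNF130, RNF14, RNF207, RNF214, RNF220, RNF227, RNF25, RNF34 and RNF8. Other probe sets of RNF126, RNF14 and RNF207 passed in BR200 and are given below. Members were grouped by the compartment they are known for. The counts of each group stand beside the same background over all genes, 31.8% lower and 36.7% higher in BR100 and 31.2% and 35.4% in BR200, and no group was tested as a whole. No member was called in opposite directions in the 2 variants.

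**Figure D2:**
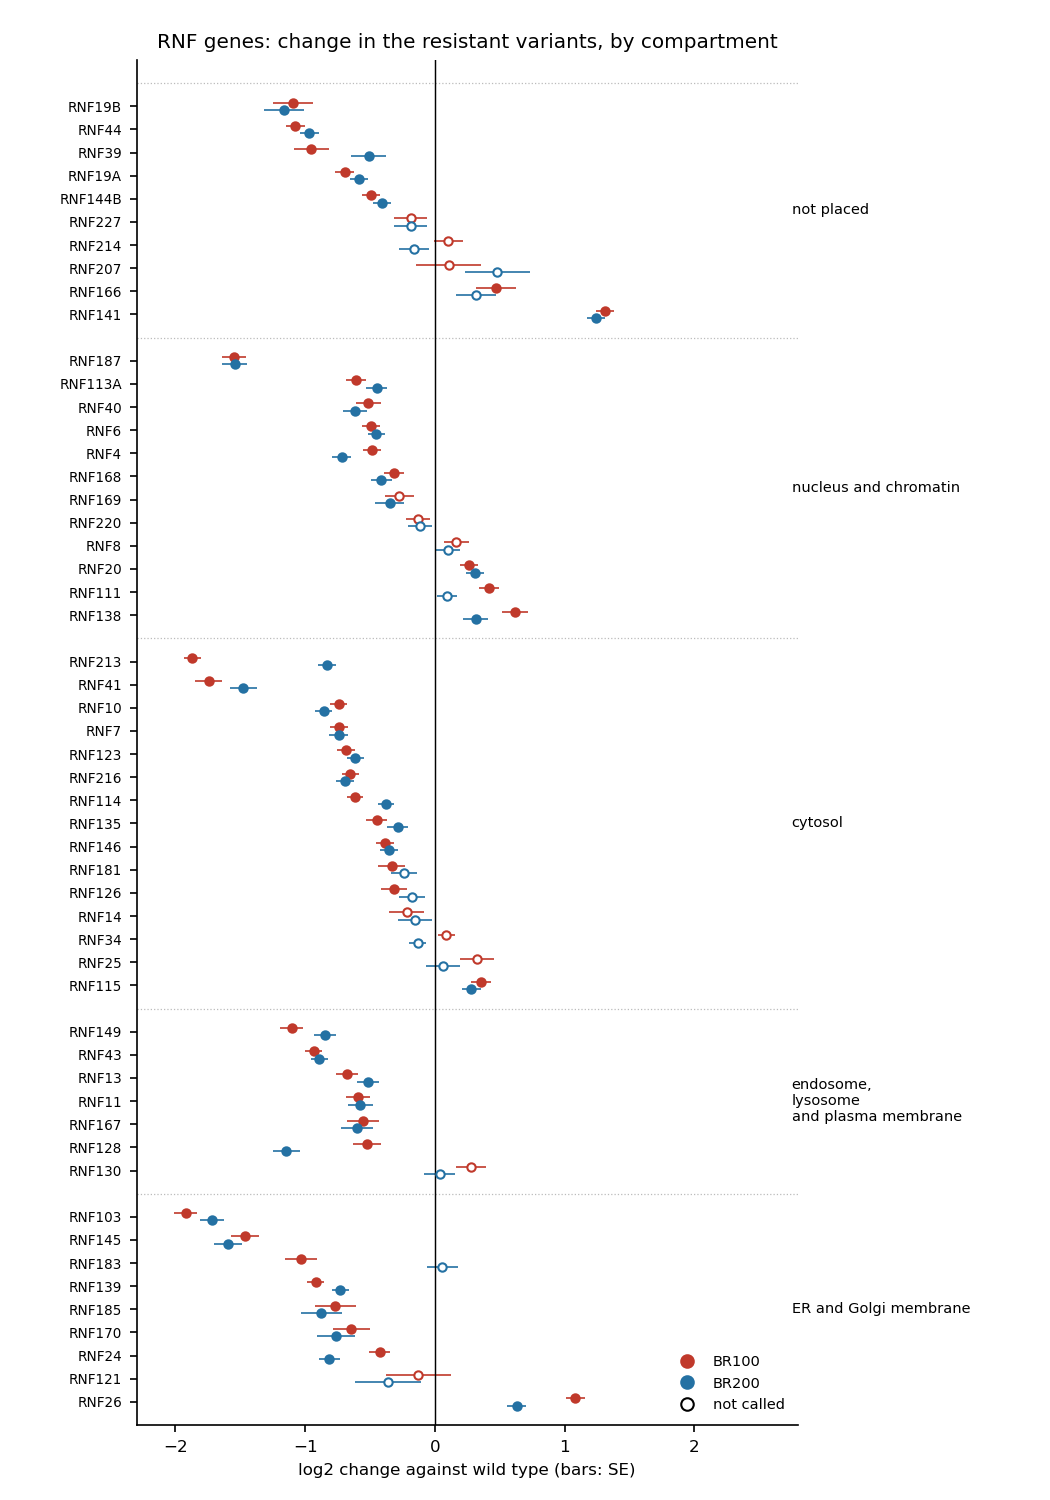
Log2 change against wild type (horizontal axis) of each measured RNF gene in BR100 and BR200, grouped by known compartment; bars are limma standard errors and open points did not pass the test. ER and Golgi members lie mostly to the left of zero, with medians of −0.77 and −0.76, RNF26 is the called exception on the right, and nuclear members lie on both sides.

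Of 9 measured members of the ER and Golgi membranes, 7 fell in BR100 and 6 in BR200, 1 rose in each, and the median changes were −0.77 and −0.76. RNF103, an ER-membrane ligase that takes part in the degradation of ER proteins, had the largest fall of all members on the probe sets that stood for each gene. RNF41 and RNF170 had larger falls on other probe sets, given with the probe-set values. Its log2 level was 10.10 and 10.16 on the Express and One-Cycle arrays of wild type, 8.28 and 8.13 in BR100, and 8.50 and 8.32 in BR200. The resistant arrays all lay below both wild-type arrays. RNF103 fell by 1.92 (SE 0.09, 3.79-fold lower, adjusted p = 0.000224) in BR100 and by 1.72 (SE 0.09, adjusted p = 0.000309) in BR200.

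RNF145 and RNF139 are ER ligases of sterol metabolism, and RNF145 targets HMG-CoA reductase. RNF145 stood at 12.13 and 11.90 in wild type, 10.77 and 10.32 in BR100 and 10.72 and 10.12 in BR200. It fell by 1.47 (SE 0.11, adjusted p = 0.000606) and by 1.59 (SE 0.11, adjusted p = 0.000563). RNF139 stood at 12.62 and 12.72, at 11.65 and 11.85, and at 11.88 and 12.00, and fell by 0.92 (SE 0.07, adjusted p = 0.000599) and by 0.73 (SE 0.07, adjusted p = 0.00123). For both genes the resistant arrays lay below wild type without overlap.

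RNF185, a ligase of ER-associated degradation, read 7.10 and 6.94 in wild type, 6.10 and 6.40 in BR100 and 6.28 and 6.0 in BR200, and fell by 0.77 (SE 0.16, adjusted p = 0.0131) and 0.87 (SE 0.16, adjusted p = 0.00906). RNF170, which removes activated inositol trisphosphate receptors, changed by −0.64 and −0.76. RNF24, a Golgi membrane protein, changed by −0.42 and −0.81. The calls of RNF185 and RNF170 in BR100 each ended without either wild-type array, with adjusted p up to 0.135 and 0.146 over all alternatives. In BR200 the RNF185 call ended without either wild-type array or the One-Cycle array of BR200, and the RNF170 call without the One-Cycle array of wild type or the Express array of BR200. The RNF24 call in BR100 ended without the One-Cycle array of wild type or of BR100. RNF121 had changes of −0.13 and −0.36 and did not pass in either variant.

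RNF26 was the ER member that rose. It retains endosomes near the nucleus and acts on the immune adaptor STING. Its level was 6.88 and 6.85 in wild type, 7.94 and 7.95 in BR100 and 7.56 and 7.44 in BR200, which is above wild type on every resistant array. The change was 1.08 (SE 0.07, 2.12-fold higher, adjusted p = 0.000459) in BR100 and 0.63 (SE 0.07, adjusted p = 0.00211) in BR200.

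Of 7 members of endosomes, lysosomes and the plasma membrane, 6 fell in both variants and none rose, with median changes of −0.59 and −0.60. RNF43 removes Frizzled receptors from the surface and so restrains Wnt signalling. It read 10.72 and 10.43 in wild type, 9.77 and 9.51 in BR100 and 9.84 and 9.52 in BR200, with no overlap. It fell by 0.93 (SE 0.07, 1.91-fold lower, adjusted p = 0.000524) and by 0.89 (SE 0.07, adjusted p = 0.000656). RNF149, which carries the protease-associated domain of the Goliath-type ligases, read 11.59 and 11.40, then 10.48 and 10.30, then 10.85 and 10.45. It fell by 1.10 (SE 0.09, adjusted p = 0.000722) and by 0.85 (SE 0.09, adjusted p = 0.00164).

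RNF128, known as GRAIL for its part in T-cell anergy, was lower in BR200 than in BR100. It stood at 12.50 and 12.84 in wild type, 12.12 and 12.17 in BR100 and 11.34 and 11.71 in BR200, and the groups did not overlap. The fall was 0.52 in BR100 (SE 0.10, adjusted p = 0.0113, ended without either wild-type array or the One-Cycle array of BR100) and 1.14 in BR200 (SE 0.10, adjusted p = 0.00115). RNF13 and RNF167, ligases of endosomes and lysosomes, changed by −0.67 and −0.51 and by −0.55 and −0.60, and RNF11, which works with the NF-kB inhibitor A20, by −0.59 and −0.57. The RNF167 call ended without the One-Cycle array of BR100 in that variant and without either BR200 array in the other. In BR200 the RNF13 call ended without the One-Cycle array and the RNF11 call without the Express array or the One-Cycle array of wild type. RNF130 did not pass, at 0.28 and 0.04.

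**Figure D3:**
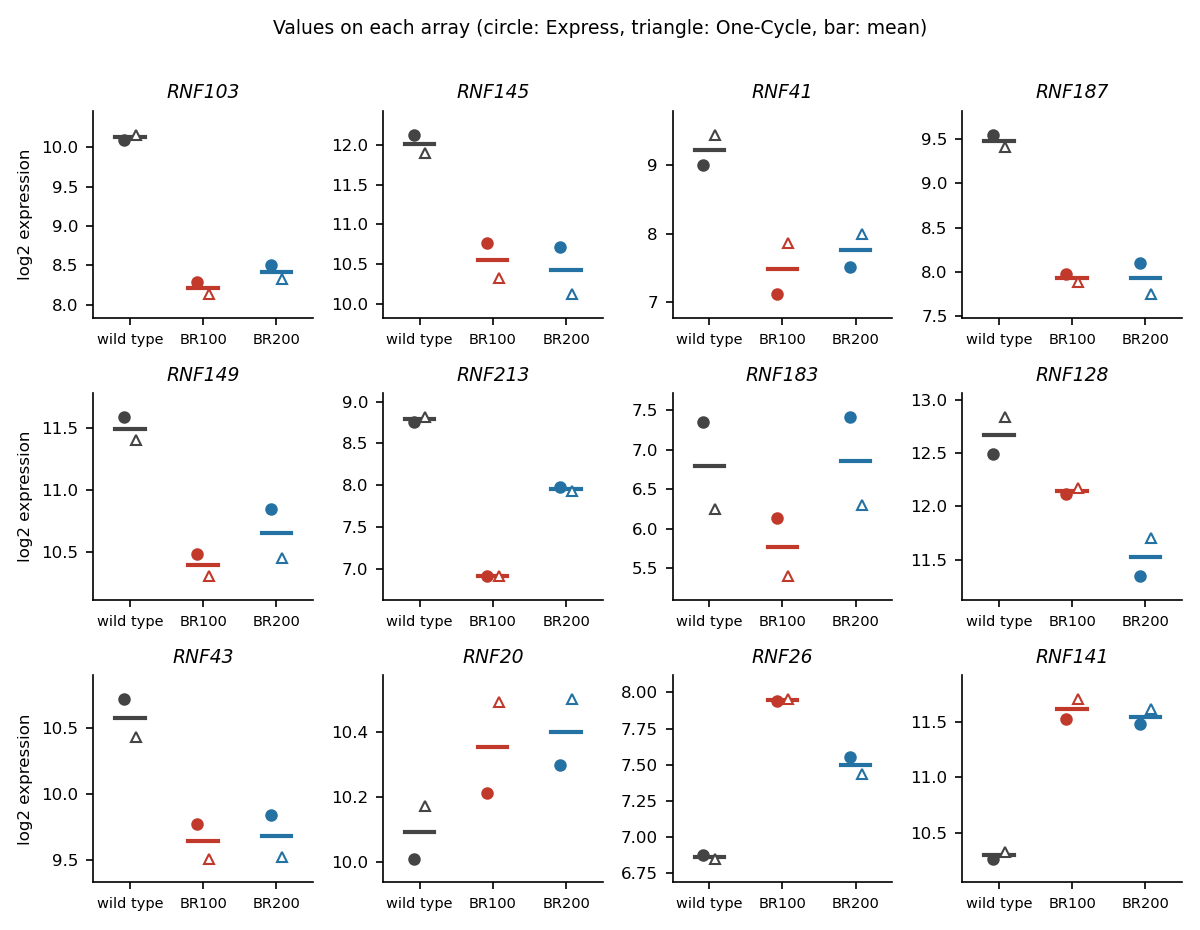
Deposited log2 level (vertical axis) of 12 RNF genes on each of the 6 arrays, by variant, with the labelling kit marked. RNF103, RNF145, RNF41 and RNF187 lie lower on every resistant array than on wild type, RNF141 and RNF26 higher, and RNF183 and RNF213 read higher in BR200 than in BR100.

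Of 15 cytosolic members, 11 fell and 1 rose in BR100, and 9 fell and 1 rose in BR200, with median changes of −0.45 and −0.35. RNF213, a very large ligase with an ATPase core that is raised by interferon, read 8.76 and 8.82 in wild type, 6.92 and 6.92 in BR100 and 7.98 and 7.94 in BR200. It fell by 1.87 (SE 0.07, 3.65-fold lower, adjusted p = 0.000151) in BR100 and by 0.83 (SE 0.07, adjusted p = 0.00086) in BR200. The BR200 call ended when the mean of its probe sets was used, at an adjusted p of 0.0583.

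RNF41, or NRDP1, sets the level of the receptor ERBB3. It read 9.01 and 9.45 in wild type, 7.11 and 7.86 in BR100 and 7.51 and 8.0 in BR200. The One-Cycle array was the higher one in each variant, and the resistant arrays all lay below wild type. RNF41 fell by 1.74 (SE 0.10, 3.35-fold lower, adjusted p = 0.000354) and by 1.48 (SE 0.10, adjusted p = 0.000574).

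RNF10, which tags ribosomal proteins of stalled ribosomes, read 11.00 and 11.16 in wild type, 10.26 and 10.41 in BR100 and 10.13 and 10.31 in BR200, with no overlap. It fell by 0.74 (SE 0.06, adjusted p = 0.000912) and by 0.86 (SE 0.06, adjusted p = 0.000692). RNF7, the RING subunit of CUL5 ligases, changed by −0.74 in both. RNF123, which processes an NF-kB precursor, changed by −0.68 and −0.61. RNF216, an RBR ligase, changed by −0.65 and −0.69. Of the 5 tested members with a role in antiviral or NF-kB signalling, 4 fell in both variants. RNF135, which activates the viral RNA sensor RIG-I, changed by −0.45 (adjusted p = 0.00809, ended without the Express array of wild type or of BR100) and −0.29 (adjusted p = 0.0329, ended without any one of the wild-type or BR200 arrays). RNF126, which works on proteins stranded in the cytosol, read 6.78 and 7.74, 6.53 and 7.37, and 6.76 and 7.40, so its arrays overlapped. Its fall of 0.31 in BR100 had an adjusted p of 0.0481, which ended without any one of the wild-type or BR100 arrays.

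RNF115 was the cytosolic member that rose. It stood at 8.86 and 8.40 in wild type, 9.29 and 8.68 in BR100 and 9.17 and 8.66 in BR200, so that the variants overlapped unless read within a kit. The changes were 0.36 (SE 0.07, adjusted p = 0.0126) and 0.28 (SE 0.07, adjusted p = 0.027). A second probe set of RNF115, 226468_at, did not pass on its own, at 0.19 and −0.07. Both calls ended with no kit block and with the mean of the gene's probe sets. The BR200 call also ended with no filter on low values, with median centring and with quantile normalization. The call in BR100 ended without the Express array of wild type or of BR100, and the one in BR200 without any one of the wild-type or BR200 arrays.

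The 12 nuclear members divided more evenly: 6 fell and 3 rose in BR100, and 7 fell and 2 rose in BR200, with median changes of −0.29 and −0.38. RNF187, a coactivator of the transcription factor AP-1, had the largest change among them. It read 9.54 and 9.40 in wild type, 7.97 and 7.88 in BR100 and 8.11 and 7.75 in BR200, with no overlap. It fell by 1.55 (SE 0.09, adjusted p = 0.000376) and by 1.54 (SE 0.09, adjusted p = 0.000419), 2.92-fold in both.

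RNF20 and RNF40 form the complex that adds ubiquitin to histone H2B, and their array values differed in direction. RNF20 read 10.01 and 10.17 in wild type, 10.21 and 10.49 in BR100 and 10.30 and 10.50 in BR200. Its change was 0.26 (SE 0.07, adjusted p = 0.0279, ended without any one of the 6 arrays) and 0.31 (SE 0.07, adjusted p = 0.0175, ended without the One-Cycle array of wild type or either BR200 array). RNF40 read 7.07 and 7.88, 6.69 and 7.23, and 6.56 and 7.15, and overlapped between variants unless read within a kit. It fell by 0.51 (SE 0.10, adjusted p = 0.00903, ended without the One-Cycle array of BR100) and by 0.62 (SE 0.10, adjusted p = 0.00539). Both RNF40 calls ended with no kit block, and with no filter on low values.

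Members with a role in DNA damage and replication, RNF113A among them, moved in both directions, with 2 higher and 3 lower of 7 in BR100 and 1 higher and 4 lower in BR200. RNF8, which starts ubiquitin marking at breaks, read 7.74 and 7.59, 7.75 and 7.91, and 7.75 and 7.78, and did not pass (0.16 and 0.10). RNF168, which extends that marking, read 10.77 and 10.79, 10.40 and 10.54, and 10.39 and 10.34. It fell by 0.31 (SE 0.08, adjusted p = 0.0226) and by 0.41 (SE 0.08, adjusted p = 0.0103). The first of these calls ended without any one of the wild-type or BR100 arrays, and the second without either wild-type array or the One-Cycle array of BR200.

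RNF4, which recognises SUMO-tagged proteins, read 10.23 and 10.44 in wild type, 9.74 and 9.96 in BR100 and 9.56 and 9.67 in BR200. It fell by 0.49 (SE 0.07, adjusted p = 0.00401) and by 0.72 (SE 0.07, adjusted p = 0.00135). RNF138, which acts in the trimming of broken DNA ends, read 10.62 and 10.66, 11.09 and 11.43, and 10.87 and 11.04. It rose by 0.62 (SE 0.10, adjusted p = 0.00528) and by 0.31 (SE 0.10, adjusted p = 0.0433, ended without the One-Cycle array of wild type or either BR200 array). RNF111, or Arkadia, a ligase that also recognises SUMO, read 10.08 and 9.85, 10.41 and 10.35, and 10.15 and 9.97. It rose by 0.42 in BR100 (SE 0.08, adjusted p = 0.00856, ended without the One-Cycle array of BR100) and stood at 0.09 in BR200.

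Of 10 members with no compartment assigned, 5 fell in each variant, 2 rose in BR100 and 1 in BR200. RNF141 had the largest rise of the family. It read 10.27 and 10.33 in wild type, 11.52 and 11.70 in BR100 and 11.48 and 11.61 in BR200, all resistant arrays above wild type. The changes were 1.31 (SE 0.07, 2.48-fold higher, adjusted p = 0.000288) and 1.24 (SE 0.07, adjusted p = 0.000357). RNF44 read 9.17 and 9.39, 8.06 and 8.36, and 8.24 and 8.39, and fell by 1.07 (SE 0.07, adjusted p = 0.000492) and by 0.97 (SE 0.07, adjusted p = 0.000709).

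RNF39 read 5.73 and 6.52 in wild type, 4.95 and 5.40 in BR100 and 5.46 and 5.76 in BR200, where the higher BR200 array overlapped wild type. It fell by 0.95 (SE 0.13, adjusted p = 0.00385) and by 0.51 (SE 0.13, adjusted p = 0.0275), and the second call ended without either BR100 array or the One-Cycle array of wild type or of BR200. RNF166 read 6.88 and 7.47, 7.58 and 7.72, and 7.47 and 7.52. It rose by 0.47 in BR100 (SE 0.15, adjusted p = 0.0491), a call kept only when the One-Cycle array of wild type was the one left out, and stood at 0.32 in BR200.

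RNF19B, an RBR ligase, read 5.85 and 6.15 in wild type, 4.85 and 4.98 in BR100 and 4.97 and 4.71 in BR200, near the low end of the measured range. It fell by 1.09 (SE 0.15, adjusted p = 0.00375) and by 1.16 (SE 0.15, adjusted p = 0.00331). RNF19A, its close relative, changed by −0.70 and −0.58 and RNF144B, also an RBR ligase, by −0.49 and −0.41, the second of which did not pass without either BR200 array. In all, 4 of 5 measured RBR members fell in both variants, and RNF14 did not pass at −0.22 and −0.15.

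Between the resistant variants, 4 of 53 members passed the test (7.55%), 2 higher and 2 lower in BR200. Over all genes 10.6% did, 6.39% higher and 4.23% lower, so the members' share was near the background. At an unadjusted p under 0.05 there were 13 members. The share of all genes at that unadjusted threshold was not counted in any fit, so such counts have no background beside them. RNF183, an ER-membrane ligase, read 7.35 and 6.25 in wild type, 6.13 and 5.40 in BR100 and 7.41 and 6.30 in BR200. BR200 was close to wild type and BR100 was lower within each kit. It fell by 1.03 in BR100 (SE 0.12, adjusted p = 0.00217), stood at 0.06 in BR200 and was 1.09 higher in BR200 than in BR100 (SE 0.12, adjusted p = 0.0204).

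RNF213 was 1.04 higher in BR200 than in BR100 (SE 0.07, adjusted p = 0.00765), and BR200 lay between BR100 and wild type. RNF128 was lower in BR200, at −0.62 (SE 0.10, adjusted p = 0.0403), and so was RNF26, at −0.45 (SE 0.07, adjusted p = 0.0363). All 4 calls ended without any one of the 6 arrays. Few or no calls were then left among all genes either, so this loss was not particular to the members.

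**Figure D4:**
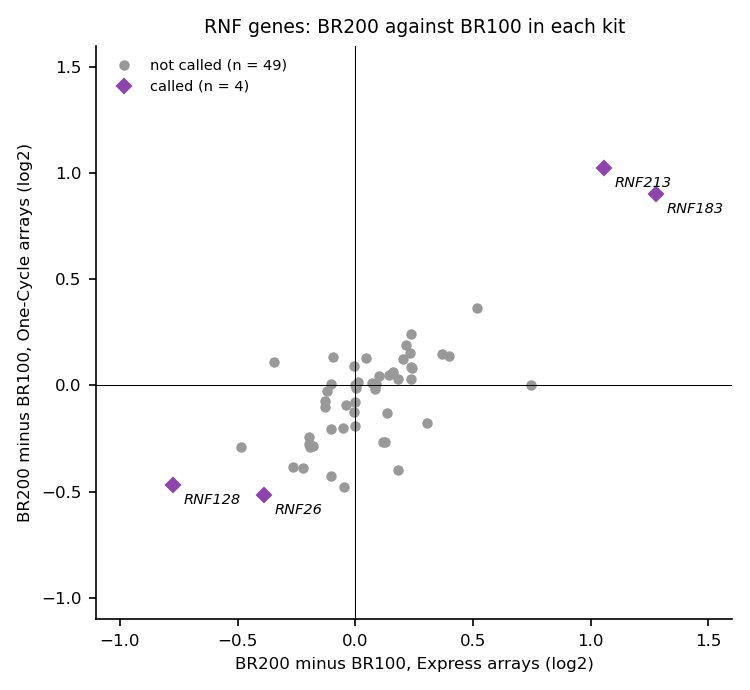
Difference of BR200 minus BR100 in log2 units for each measured RNF gene, on the Express arrays (horizontal axis) and the One-Cycle arrays (vertical axis). RNF183 and RNF213 lie apart at the upper right, with fitted differences of 1.09 and 1.04, and RNF128 lies at the lower left at −0.62.

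The probe sets of a member did not always give the same size of change. This reading, chosen after seeing the data, fitted each of 19055 probe sets that passed the filter on its own. Of 86 member probe sets, 49 were lower and 8 higher in BR100, where 30.9% of all probe sets were lower and 32.0% higher. In BR200, 47 were lower and 7 higher, beside 29.8% and 29.7% of all probe sets. For 25 members with several such probe sets, every probe set had the same call in 11 members in BR100 and in 8 in BR200. RNF114 alone had calls in both directions, in BR200, at −0.38 on 211678_s_at (adjusted p = 0.0132) and 0.33 on 200868_s_at (adjusted p = 0.0348).

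Some members differed widely in size between probe sets. RNF141 rose by 2.99 and 2.55 on 219104_at, against 1.31 and 1.24 on the probe set that stood for the gene. RNF170 changed by −2.49 and −2.36 on 226104_at, against −0.64 and −0.76. RNF41 changed by −2.52 and −2.65 on 235459_at, and RNF24 by −0.92 and −1.52 on 226542_at. Other probe sets of RNF24 did not pass in BR100, at 0.31 on 204668_at and −0.04 on 210706_s_at. In BR200 they stood at −0.23, which did not pass, and −0.51, which did. RNF103 changed by less on its other probe set, 1568665_at, at −0.82 and −0.20, and RNF213 by less on 241347_at, at −0.96 and −0.45. On 218426_s_at RNF216 had changes of 0.29 and 0.06, which did not pass, against −0.65 and −0.69. In the limma fit of single probe sets, RNF126 was lower on 223332_x_at in BR100, at −0.35 (adjusted p = 0.0325), and in BR200, at −0.40 (adjusted p = 0.0237). The probe set that stood for RNF126 passed in neither variant in that fit. RNF14 was lower on 201824_at in BR200, at −0.35 (adjusted p = 0.0294), and did not pass in BR100.

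**Figure D5:**
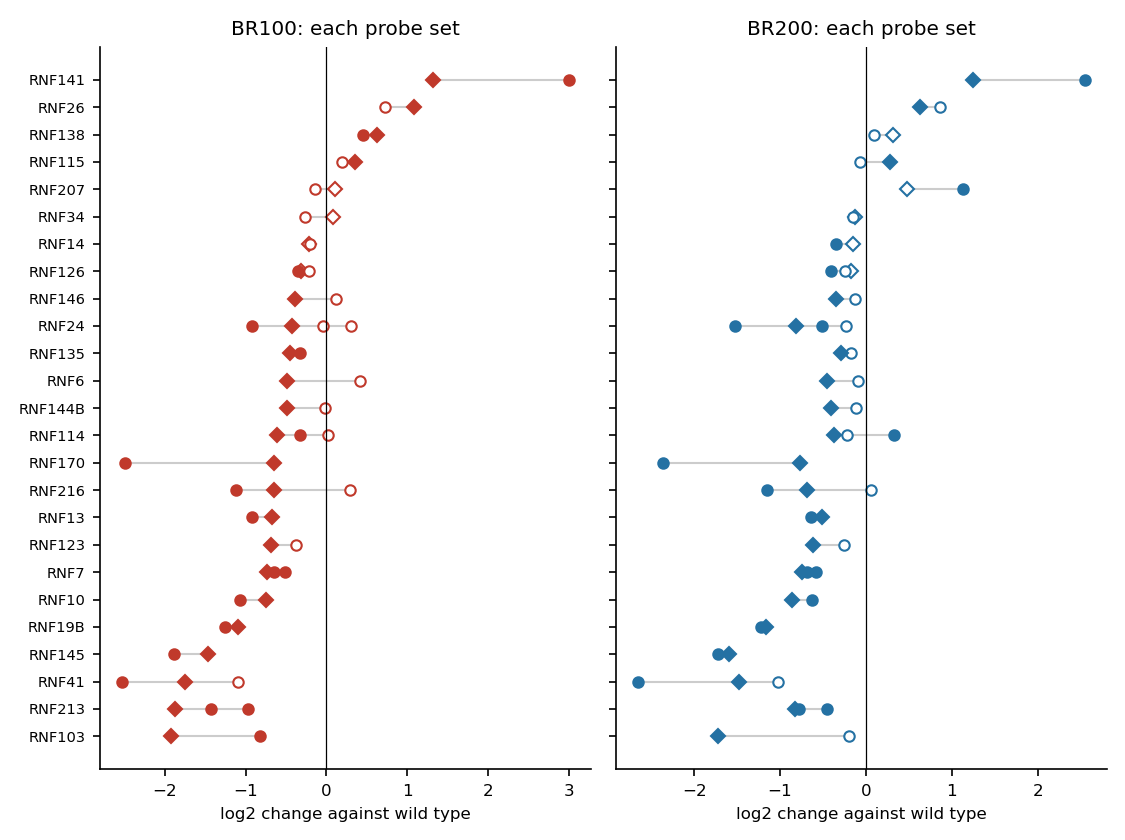
Log2 change against wild type (horizontal axis) of every probe set of the 25 RNF genes with several measured ones; diamonds mark the probe set that stood for the gene, circles the others, and open symbols did not pass the test. RNF141, RNF170 and RNF41 each have a probe set with a larger change than the one that stood for the gene.

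The labelling kit changed 16 of the 53 members (30.2%), beside 34.0% of all genes. With the variants as a block, 9 were higher and 7 lower on the Express arrays, beside 22.4% and 11.7% of all genes. After median centring of the arrays the members' split became 5 higher and 18 lower. The median kit difference of all genes moved from 0.073 to −0.034 with it, so the direction of the kit counts depends on the scaling. The split of all genes after centring was not counted. Leaving out any one of the 6 arrays left fewer kit calls, among the members and among all genes. RNF183 differed by 0.98 and RNF126 by −0.81 (Express minus One-Cycle), and for RNF126 the kit difference was larger than either change against wild type. The same held in size for RNF115, at 0.52, and RNF40, at −0.65, both called in each resistant variant.

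The 22 members below the filter were RNF112, RNF122, RNF133, RNF144A, RNF148, RNF150, RNF151, RNF152, RNF157, RNF17, RNF175, RNF180, RNF182, RNF186, RNF208, RNF212, RNF212B, RNF215, RNF217, RNF31, RNF32 and RNF5. Only RNF32 reached a log2 value of 4 on any array, at 4.06, and 9 of the 22 stood at the lowest value, 2.23, on all arrays. RNF31, the catalytic subunit of the linear ubiquitin ligase, reached at most 3.40 on its own probe set. A probe set that RNF31 shares with IRF9 read 6.38 and 6.34 in wild type, 5.90 and 6.24 in BR100 and 6.35 and 6.51 in BR200. RNF5, an ER ligase related to RNF185, shares a probe set with its pseudogene RNF5P1 that read 8.94 and 9.51, 9.18 and 9.74, and 9.50 and 9.99. Another shared probe set, of RNF103, CHMP3 and their readthrough, read 9.62 and 9.72, 10.20 and 10.22, and 10.22 and 10.23, which is higher on every resistant array where the RNF103 probe set was lower. Signals of these genes cannot be separated on shared probe sets, and RNF2 was not analysed here.

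The partner lists are given beside the same background over all genes, 31.8% lower and 36.7% higher in BR100 and 31.2% and 35.4% in BR200. Among 59 other RING ligases, 23 were lower and 13 higher in each variant, with medians of −0.20 and −0.18. UHRF1, which binds methylated DNA, changed by 3.24 and 3.12, and CBLC, a receptor ligase, by −2.17 and −2.29. Among 20 E2 enzymes, 7 fell and 6 rose in BR100, and 7 fell and 8 rose in BR200, shares near that background. UBE2L6, the E2 for the ubiquitin-like protein ISG15, changed by −3.95 and −1.75, and UBE2T, the E2 of the Fanconi anaemia pathway, by 2.70 and 2.68.

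Of 13 other ER ligases and degradation components, 6 fell and none rose in BR100, and 8 fell and 1 rose in BR200, with medians of −0.28 and −0.54. HERPUD1, a stress-induced ER component, changed by −2.85 and −2.95 and SEL1L, the adaptor of the ligase HRD1, by −1.74 and −1.84. Of 11 genes of linear ubiquitin and RIG-I signalling, 8 fell and 1 rose in BR100 and 9 fell in BR200. RIGI, the sensor that RNF135 activates, changed by −3.23 and −1.95, and RBCK1, a partner of RNF31, by −2.40 and −2.37.

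Of 16 partners in the response to DNA breaks, 10 rose and 3 fell in BR100 and 9 rose and 5 fell in BR200. BARD1, the partner of BRCA1, changed by 2.91 and 2.73 and RAD18, a ligase of stalled replication, by 2.41 and 2.42. Of 17 genes of the Polycomb complex PRC1 and of H2B ubiquitylation, 10 fell and 3 rose in BR100 and 9 fell and 4 rose in BR200, with PCGF5 at −2.95 and −2.05 and CBX2 at 2.05 and 1.91. Of 8 Wnt receptor genes, 5 fell and 1 rose in BR100 and 6 fell and 1 rose in BR200. ZNRF3, the relative of RNF43 that also removes Frizzled receptors, changed by −1.0 and −1.25.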

How the data were processed

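Expression was measured on Affymetrix arrays of 54675 probe sets in 6 HT-29 samples: wild type, BR100 and BR200, 2 arrays each, 1 per labelling kit. The authors deposited log2 values made with GCRMA, per the submitters' processing notes; its version was not given, nor were detection calls. All arrays share a lowest value of 2.23, where 34.8% to 35.3% of each array's probe sets stood. The number of arrays and the signal over that background limit the precision.

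The array's annotation table gave a single gene to 41097 probe sets, more than 1 gene to 1801 and no gene to 11777, and only the first kind was fitted. Each gene took its probe set with the highest mean. Genes with a log2 value of 4 on at least 2 arrays were kept (10370; 9405 set aside). One limma 3.58.1 model in R 4.3.3 (lmFit, eBayes, two-sided) had variant and kit as terms, with 2 residual and 2.33 prior degrees of freedom. Adjusted p-values are Benjamini-Hochberg over all genes kept. Changes are differences of log2 values with limma's SE.

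The script was tested on simulated data. Members, gene lists and compartments were chosen with earlier results of these data known. Named with array values were called members with the largest changes, up to 10 each way per comparison with wild type, and RNF4, RNF5, RNF8, RNF20, RNF31, RNF40, RNF43, RNF111, RNF126, RNF139, RNF168, RNF185 and RNF213 whatever their values (RNF2, also on that list, was not analysed here); partners named were among the 4 called genes of each list with the largest change. Other members were added for their roles. Alternatives left out each array, the kit block or the filter, or changed the probe set rule, scaling or eBayes setting. Protein sequences were not used here.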

Additional observations from a re-analysis of the deposited data

Results flagged for a closer look

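The following members differed between the resistant variants themselves, by the test of BR200 against BR100 in the limma fit. RNF183 was 1.09 higher in BR200 (SE 0.12, adjusted p = 0.0204), on both kits. RNF213 was 1.04 higher (SE 0.07, adjusted p = 0.00765), also on both kits. RNF128 was lower in BR200, at −0.62 (SE 0.10, adjusted p = 0.0403). RNF26 was lower too, at −0.45 (SE 0.07, adjusted p = 0.0363). Groups of 2 arrays are too small to look for single outlying arrays.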

How the results depend on the processing

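No member called between variants changed sign in the gene-level alternatives, but single probe sets of RNF114, RNF216 and other members had the opposite sign. With no kit block, 25 members (47.2%; 42.3% of all genes) were called in BR100 and 25 (47.2%; 39.5%) in BR200 against wild type, 1 in BR200 against BR100, and, with no variant block, 0 between kits (4 at an unadjusted p under 0.05 in limma). With no filter on low values, the counts were 26 of 75 (34.7%; 24.8% of all genes), 24 (32%; 23.3%), 0 (11 at an unadjusted p under 0.05) and 1. Leaving out each array in turn gave 32 to 40 in BR100, 25 to 37 in BR200, with 25 without the One-Cycle array of BR200, 0 to 0 in BR200 against BR100, and 1 to 7 between kits; a fit with 1 array left in a variant assumes that it varies like the others. Trend and robust eBayes gave 10 in BR200 against BR100 (18.9%; 21.7%). Leaving out probe sets that can cross-hybridize gave 9 between kits (22.5%; 31%). With these exceptions, the counts under the other settings lay within 1.5 times those reported. Across all alternatives, 15 of 42 calls in BR100, 14 of 38 in BR200 and 0 of 4 in BR200 against BR100 were kept. These kept calls exclude members that an alternative could not test. RNF4 and RNF187 were excluded in this way in both variants, although no alternative ended their calls. Median centring left 33 lower in BR200. Signal near the lowest value limits the 22 members below the filter and members such as RNF19B.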

Other observations

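RNF207 has a second measured probe set, 1555870_at, that rose by 1.13 in BR200 against wild type (adjusted p = 0.00169) and was 1.27 higher in BR200 than in BR100 (adjusted p = 0.0178) in the limma fit of single probe sets, while the probe set that stood for the gene did not pass, at 0.11 and 0.48. RNF6 has a second probe set, 210932_s_at, that did not pass at 0.42 and −0.09 and that split by kit in every variant, with wild type at 3.84 on the Express and 7.39 on the One-Cycle array. These were singled out after their values were seen.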
